A study of Homo sapiens with 12 samples.

Results

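The genes described here are 37 genes of the amino acid response controlled by ATF4, a transcription factor that cells make when the translation factor eIF2 is phosphorylated. They were taken as a list of symbols: ATF4 and other transcription factors of the response, its stress effectors, serine and one-carbon enzymes, asparagine and proline enzymes, amino acid transporters and aminoacyl-tRNA synthetases. All 37 were among the 56609 symbols of the count table, and all 37 were among the 21698 genes that passed the filter on low counts. RNA was sequenced from A375, an established human melanoma cell line. There were 4 groups of 3 replicates: wild-type cells kept with DMSO, wild-type cells kept with 500 nM JQ1, MAPKAPK2-knockout cells kept with DMSO and MAPKAPK2-knockout cells kept with 500 nM JQ1, each for 48 h. JQ1 displaces BET bromodomain proteins from acetylated chromatin, MAPKAPK2 encodes the stress-activated kinase MK2, and the series asked how loss of MAPKAPK2 alters the response to such inhibitors. The knockout was made with CRISPR/Cas9, and the sources used here do not say whether it was 1 clone or a pool of edited cells. The drug-free samples are titled untreated but carry DMSO in their treatment field, and the latter was used.

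Cells phosphorylate eIF2 when amino acids run short, when unfolded proteins collect in the endoplasmic reticulum (ER), or under several other stresses. General translation then falls while ATF4 mRNA is translated more, so much of the control over ATF4 lies in its translation and need not show in its mRNA level. ATF4 binds DNA as a dimer with C/EBP-family proteins at composite elements, and its targets supply the cell with amino acids and charged tRNAs, or, when the stress lasts, promote cell death and feed back on the pathway.

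The libraries held between 25316899 and 34594295 estimated counts. CHAC1 had the fewest, with 32 to 132 counts in a library, and levels are given as counts per 1000000 counts of a library (CPM) after scaling by edgeR's trimmed mean of M values. MAPKAPK2 itself was at 89.6 ± 2.2 CPM in wild type with DMSO and 117 ± 4.31 with JQ1, and at 12.4 ± 1.15 in the knockout with DMSO and 14.4 ± 1.6 with JQ1 (SD, n = 3 each). Of 8 markers of the melanocyte lineage, SOX10 was at 389 to 687 CPM, whereas TYR, DCT and TYRP1 stayed under 1 CPM in every library. The summed levels of marker lists for keratinocytes, fibroblasts, leukocytes and endothelial cells were at most 7.12, 13.2, 3.78 and 2.35 CPM. Knockout JQ1 replicate 3 stood apart from its replicates, with a chi-square per degree of freedom of 23.8 and 25.1 against them, where all other replicate pairs of a group gave 3.21 to 7.05. It also had the highest share of counts in 4 small noncoding RNAs (RN7SK, RN7SL1, RN7SL2 and RMRP), a share that ran from 9.42% to 9.76% in wild type with DMSO and from 10.5% to 14.6% in the other 3 groups; the part of this share in the results was not tested. Nothing in the labels says that replicates came from separate cultures or edits, so p-values measure the spread between these samples only. RNA came from whole cultures, so a change in fewer cells and a smaller change in every cell cannot be told apart.

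The composite element read by ATF4 and C/EBP proteins was searched for as TGATGNAA on both strands, in RefSeq windows of each gene's start (250 bases before to 50 after, GRCh38.p14). A window was found for 31 of the 37 genes, and those of 12 genes (38.7%) held the letters, compared with 4.46% of all 27305 genes with a window. The genes were listed as ATF4-linked, so this share is a description of the list. The 12 were CEBPG, CHAC1, ASNS, SLC7A1, SLC3A2, SLC1A4, SLC1A5, AARS, GARS, IARS, MARS and NARS. An E-box, CACGTG, was in the windows of 5 genes (16.1%) against 8.77% of all genes: ATF4, ALDH18A1, SLC7A5, SLC1A5 and IARS. No composite element overlapped an E-box. Genes with the letters TGATGNAA were not called more often with JQ1 than the 19 without them. In wild type 5 were higher and 1 lower of 12 against 8 higher and 3 lower of 19. The counts in knockout were 4 higher and 1 lower against 8 higher and 5 lower. In the knockout comparison the counts were 4 lower of 12 against 1 higher and 4 lower of 19 in DMSO, and 2 lower against 5 lower in JQ1. Elements outside the window or with other letters were not searched for. This split therefore cannot separate genes with an element from genes without one. Of all tested genes, 33.1% were called with JQ1 in wild type and 34.4% in knockout. In the knockout comparison the shares were 7.92% in DMSO and 8.57% in JQ1. Windows are shown for genes that passed in at least 1 comparison, to let the letters and spacing of the element be compared. Capitals mark the element, written on the strand of the gene, 5′ to 3′; TGATG at the left end of the capitals reads with the gene, and CATCA at the right end reads against it.
CEBPG, chr19:33374060-33374089, plus strand: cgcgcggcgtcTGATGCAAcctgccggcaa
CHAC1, chr15:40953251-40953280, plus strand: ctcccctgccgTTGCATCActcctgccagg
ASNS, chr7:97872458-97872487, minus strand: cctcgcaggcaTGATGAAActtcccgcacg
SLC7A1, chr13:29595663-29595692, minus strand: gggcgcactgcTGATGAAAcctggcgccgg
SLC3A2, chr11:62881719-62881748, plus strand: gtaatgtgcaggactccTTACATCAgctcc
SLC1A4, chr2:64989381-64989410, plus strand: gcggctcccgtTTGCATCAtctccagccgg
SLC1A5, chr19:46784893-46784922, minus strand: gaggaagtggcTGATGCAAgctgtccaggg
IARS, chr9:92293692-92293721, minus strand: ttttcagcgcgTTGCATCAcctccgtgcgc

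The first comparison was JQ1 against DMSO within each genotype. In wild type, 20 of the 37 genes passed an adjusted p of 0.05 by edgeR's quasi-likelihood test, 15 higher and 5 lower, in a comparison where 33.1% of all tested genes passed (16.9% higher and 16.2% lower). In knockout 20 passed as well, 12 higher and 8 lower, where 34.4% of all genes passed (16.7% higher and 17.8% lower). Of the 113 tested genes in the other lists given further on, 49.6% passed in each genotype. All tested genes include ones with few counts, and the part of low counts in their share was not tested. The median log2 fold change of the 37 genes was 0.11 in wild type and 0.10 in knockout, against -0.03 and -0.00353 over all genes. Transporters, ASNS, DDIT4 and SESN2 made up most of the rises, and ALDH1L2, STC2, SLC6A9, TRIB3 and IARS fell in both genotypes. Scaling moved this split: when libraries were scaled by their totals alone, which moved the median of all genes by -0.128 in wild type and -0.115 in knockout, 12 were higher and 11 lower in wild type and 11 were higher and 12 lower in knockout. Without knockout JQ1 replicate 3, the library that stood apart and that enters all fits through the shared spread, 25 passed in wild type, where 38% of all genes then passed, and 23 in knockout, where 33.6% did. No called gene changed direction under that or any other alternative run.

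These 2 comparisons share no libraries. Of the 37 genes, 12 were higher in both genotypes, 5 lower in both, and 14 passed in neither. CHAC1, EIF4EBP1 and SHMT2 were called higher in wild type alone, and DDIT3, PYCR1 and WARS were called lower in knockout alone; whether the responses differed is given by the test of the difference further on. Across the 37 genes, the 2 sets of log2 fold changes had a Pearson's r of 0.886 (Spearman's rho 0.85). Across all tested genes these were 0.661 and 0.687. The 37 genes had at least 32 counts in every library, whereas the tested genes include some with 0 counts in a library. The part of low counts in this gap was not tested. Genes are not independent replicates, and all points of one genotype come from the same 6 libraries.

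**Figure D1:**
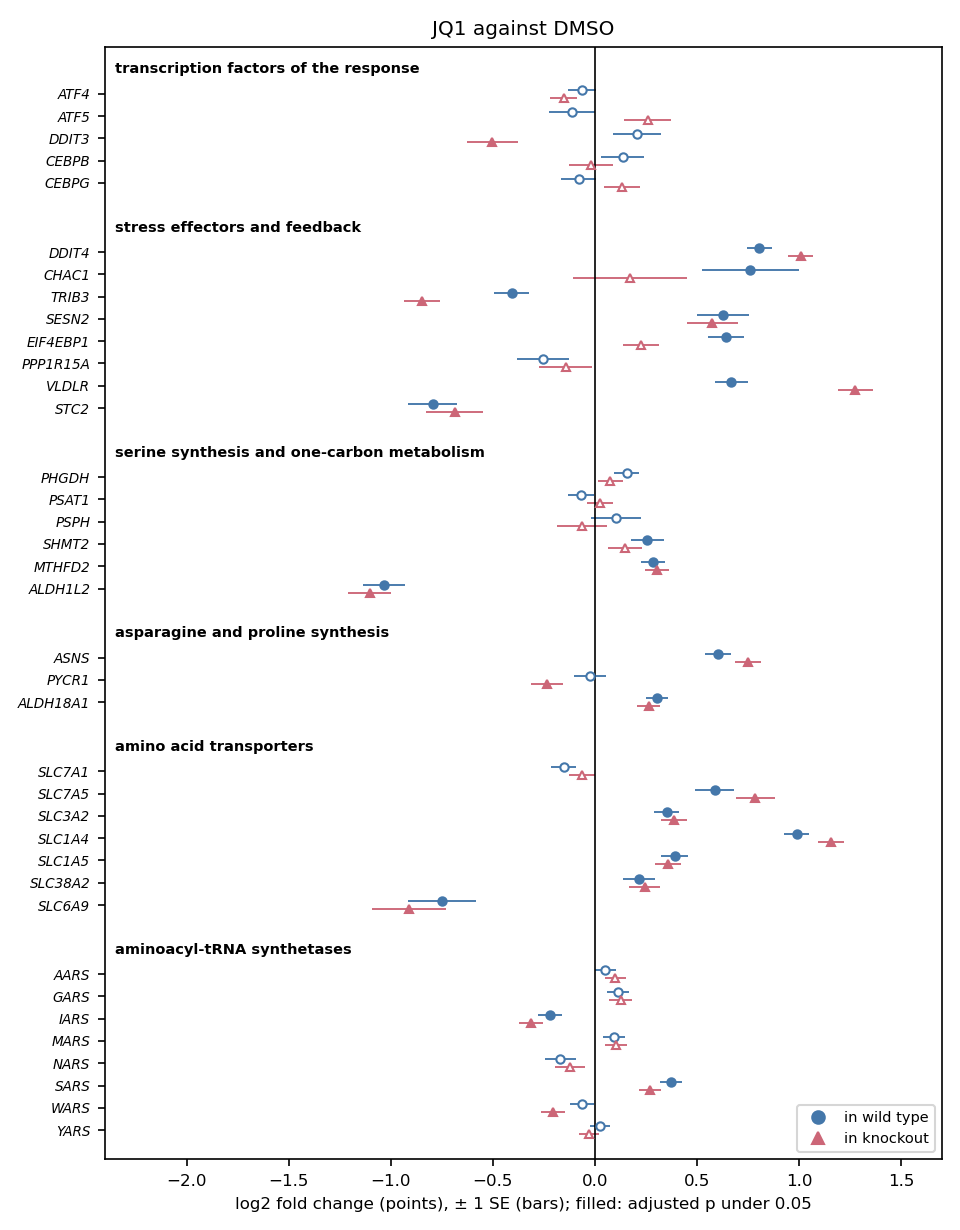
Log2 fold changes of the 37 genes, grouped by role, for JQ1 against DMSO in wild-type (circles) and knockout cells (triangles); bars are 1 SE and filled symbols passed an adjusted p of 0.05. SLC1A4, DDIT4 and ASNS lie to the right and ALDH1L2, STC2 and SLC6A9 to the left of zero in both genotypes.

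The second comparison was knockout against wild type within each treatment. In DMSO 11 of the 37 genes passed, 2 higher and 9 lower, where 7.92% of all tested genes passed (3.47% higher and 4.44% lower). In JQ1 9 passed, all of them lower (DESeq2 also called DDIT4 higher, adjusted p 0.0376), where 8.57% of all genes passed (3.01% higher and 5.56% lower). Of the 113 tested genes in the other lists, 18.6% passed in DMSO and 16.8% in JQ1. The median log2 fold change of the list was -0.10 in DMSO and -0.11 in JQ1, against -0.00485 and -0.00151 over all genes. ATF4, STC2, ALDH1L2, SLC7A1 and SLC7A5 were lower at both treatments, which is 5 of the 11 calls without the drug and 5 of the 9 with it; these comparisons share no libraries. CEBPG, VLDLR, SLC3A2 and SLC1A4 passed in DMSO and not in JQ1, and DDIT3, CHAC1, TRIB3 and YARS in JQ1 and not in DMSO. The difference between the treatments passed for none of these 8 genes by the interaction test of the main edgeR analysis (adjusted p 0.0667 to 0.955). DESeq2 called that difference for VLDLR and DDIT3. Alternative edgeR runs called it for VLDLR without knockout JQ1 replicate 3 and for DDIT3 with no low-count filter. The genes higher in the knockout in DMSO were EIF4EBP1 and ALDH18A1. The count in JQ1 was 13 without knockout JQ1 replicate 3, where 10.5% of all genes passed. It was 5 without wild-type JQ1 replicate 2, without knockout JQ1 replicate 1, or with only the groups compared in the fit, where 5.41%, 6.52% and 4.66% of all genes passed.

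**Figure D2:**
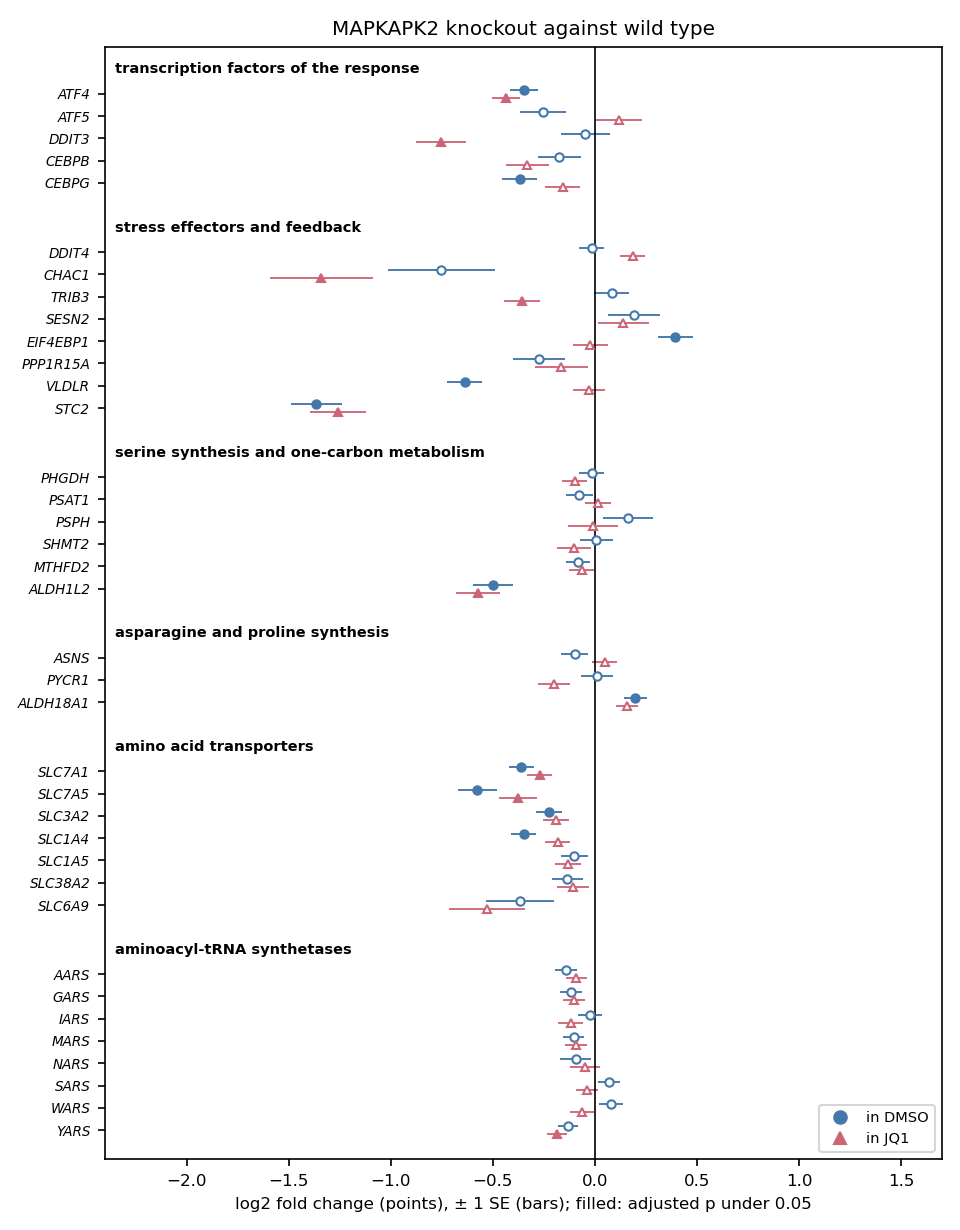
Log2 fold changes of the 37 genes, grouped by role, for MAPKAPK2 knockout against wild type in DMSO (circles) and in JQ1 (triangles); bars are 1 SE and filled symbols passed an adjusted p of 0.05. Most points lie left of zero, with STC2 at -1.36 in DMSO and -1.26 in JQ1, while all 7 transporters have negative values at both treatments.

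Among the 5 transcription factors, ATF4 mRNA was lower in the knockout and was not called with the drug. ATF4 (chr22:39519695-39522685 in GENCODE 29) was at 261, 264 and 266 CPM in wild type with DMSO and 239.9, 278 and 238 with JQ1, and at 204, 202 and 216 in the knockout with DMSO and 182, 175 and 202 with JQ1. All knockout libraries lay below all wild-type libraries, while the JQ1 and DMSO groups overlapped in wild type and met at their edges in knockout. On the log2 scale the knockout's ATF4 level differed by -0.35 (SE 0.07, adjusted p 0.00438) without the drug and -0.44 (SE 0.07, adjusted p 7.74e-04) with it. JQ1 gave -0.06 (SE 0.07, adjusted p 0.507) in wild type and -0.15 (SE 0.07, adjusted p 0.0975) in knockout, and both were called lower with library totals only (adjusted p 0.0235 and adjusted p 0.00324); the value in knockout cells was also called without knockout JQ1 replicate 3 (adjusted p 0.0152). ATF4 has 4 pseudogenes named after it in GENCODE 29, among which the counting could split reads.

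DDIT3 encodes CHOP, a C/EBP-family factor that promotes cell death when stress persists. It was at 9.93, 11.6 and 11.7 CPM in wild type with DMSO and 11, 15.3 and 12 with JQ1, and at 10.3, 10.3 and 11.5 in the knockout with DMSO and 7.62, 7.18 and 7.82 with JQ1. The 3 knockout JQ1 libraries were the lowest of all 12 and overlapped no other group. DDIT3 fell with JQ1 in knockout (log2 fold change -0.50, SE 0.12, adjusted p 0.00546), whereas wild type gave 0.20 (SE 0.12, adjusted p 0.209). In JQ1 the knockout was lower than wild type (log2 fold change -0.75, SE 0.12, adjusted p 0.00108), and in DMSO the value was -0.05 (SE 0.12, adjusted p 0.883). DDIT3 on the minus strand of chromosome 12 overlaps the end of MARS on the plus strand by 982 bases, and whether the counting used the strand is not given in the sources used here. It also overlaps AC022506.1 on its own strand by 2769 bases, which strand information would not separate. Both lengths are of whole gene spans, introns included.

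CEBPG, a C/EBP partner of ATF4, was at 29.4 ± 1.08 CPM in wild type with DMSO and 27.8 ± 2.36 with JQ1, and at 22.8 ± 1.17 in the knockout with DMSO and 25 ± 2.46 with JQ1 (SD, n = 3 each). It was lower in the knockout in DMSO (log2 fold change -0.37, SE 0.09, adjusted p 0.0143), a call lost without wild-type DMSO replicate 1 or 3 or without knockout DMSO replicate 2 or 3 (adjusted p up to 0.0959). In JQ1 the value was -0.16 (SE 0.09, adjusted p 0.334). CEBPB, another C/EBP factor, did not pass in any of the 4 comparisons, and its value closest to passing was -0.33 (SE 0.11, adjusted p 0.0743) for the knockout in JQ1, which passed in 5 of 20 alternatives, DESeq2 (adjusted p 0.0419) and leaving out knockout JQ1 replicate 3 (adjusted p 0.00184) among them. ATF5, a factor related to ATF4 and itself under translational control, did not pass either, with JQ1 values of -0.11 in wild type and 0.26 in knockout.

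The 8 stress effectors and feedback genes moved in both directions. With JQ1, 5 were higher and 2 lower in wild type, and 3 were higher and 2 lower in knockout. That is 87.5% and 62.5% called, against 33.1% and 34.4% of all tested genes. For the 113 genes of the other lists the share was 49.6% in each genotype. In the knockout comparison 1 was higher and 2 lower in DMSO and 3 were lower in JQ1. That is 37.5% called at each treatment, against 7.92% and 8.57% of all tested genes, and 18.6% and 16.8% of those 113 genes. DDIT4 encodes REDD1, an inhibitor of mTORC1. It was at 158, 162 and 165 CPM in wild type with DMSO and 284, 295 and 268 with JQ1, and at 162, 154 and 163 in the knockout with DMSO and 306, 305 and 351 with JQ1. Every JQ1 library lay above every DMSO library, with a 1.75-fold rise in wild type (log2 fold change 0.81, SE 0.06, adjusted p 2.07e-07) and a 2.01-fold rise in knockout (log2 fold change 1.01, SE 0.06, adjusted p 1.7e-08). SESN2 encodes Sestrin 2, a leucine-binding inhibitor of mTORC1. It was at 10.8, 12.5 and 11.2 CPM in wild type with DMSO and 18.2, 20.3 and 14.8 with JQ1, and at 11.4, 13.9 and 14.1 in the knockout with DMSO and 17.5, 19.2 and 21.9 with JQ1. JQ1 and DMSO groups did not overlap in either genotype, and SESN2 rose by 0.63 (SE 0.13, adjusted p 0.00136) and 0.57 (SE 0.13, adjusted p 0.00235) on the log2 scale. Neither DDIT4 nor SESN2 passed between genotypes: the knockout values for DDIT4 were -0.02 in DMSO and 0.19 in JQ1, and those for SESN2 were 0.19 and 0.14.

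**Figure D3:**
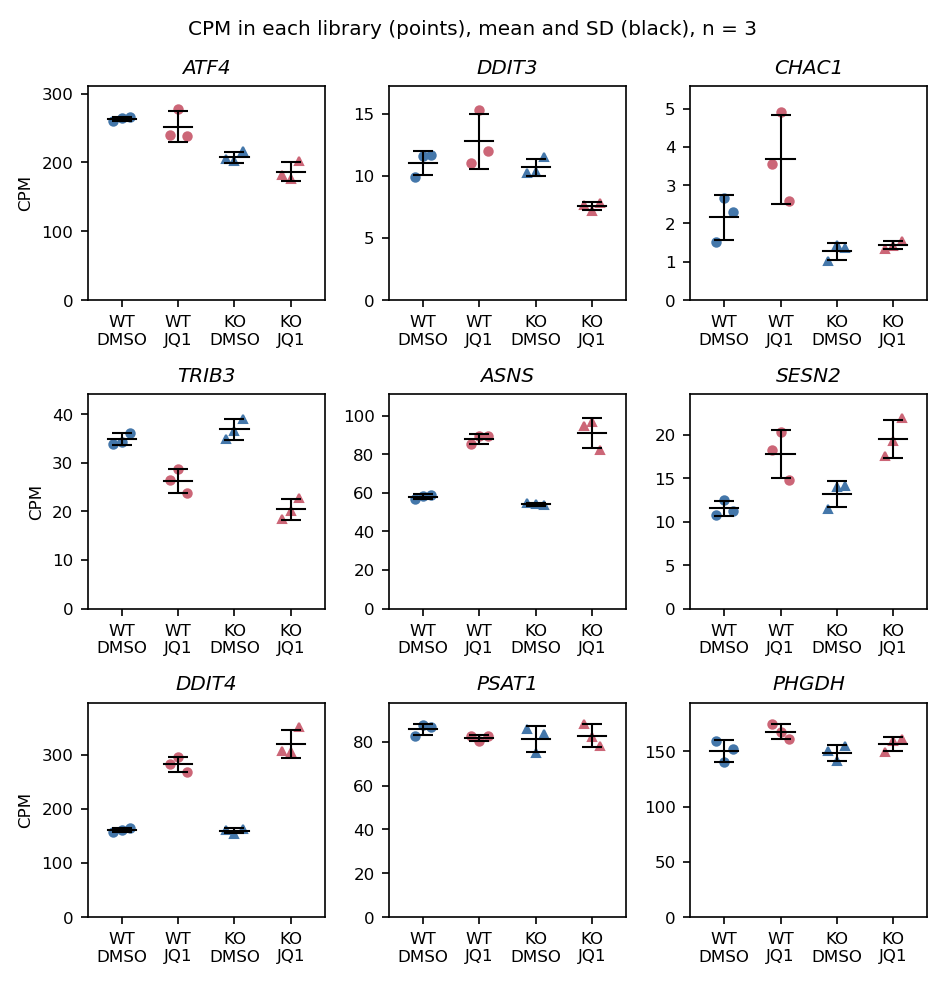
CPM of 9 genes in each library (points) with the mean and SD of 3 replicates (black), for wild-type (circles) and knockout cells (triangles) in DMSO (blue) and JQ1 (red). DDIT4, SESN2 and ASNS are higher in JQ1 in both genotypes, ATF4 is lower in the knockout, and PSAT1 and PHGDH vary little between groups.

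TRIB3 is a pseudokinase that ATF4 and CHOP induce and that feeds back on them. It was lower with JQ1, at 33.9, 34.4 and 36.2 CPM in wild type with DMSO and 26.4, 28.6 and 23.8 with JQ1, and at 34.9, 36.6 and 39.1 in the knockout with DMSO and 18.5, 20.2 and 22.7 with JQ1. JQ1 groups lay below DMSO groups in both genotypes, and the knockout JQ1 libraries lay below all others. JQ1 changed TRIB3 by -0.41 (SE 0.09, adjusted p 0.00214) in wild type and -0.85 (SE 0.09, adjusted p 3.83e-06) in knockout on the log2 scale. The knockout value was -0.36 (SE 0.09, adjusted p 0.0213) in JQ1, a call lost when wild-type JQ1 replicate 1 or 2 or knockout JQ1 replicate 1 or 2 was left out (adjusted p up to 0.113). CHAC1, which degrades glutathione, was at 1.52, 2.66 and 2.31 CPM in wild type with DMSO and 3.55, 4.9 and 2.57 with JQ1, and at 1.03, 1.44 and 1.37 in the knockout with DMSO and 1.33, 1.42 and 1.55 with JQ1. Wild-type JQ1 overlapped wild-type DMSO, and the knockout groups overlapped each other, while both knockout groups lay below the matching wild-type groups.

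JQ1 raised CHAC1 in wild type (log2 fold change 0.76, SE 0.24, adjusted p 0.0228), but the call was lost without wild-type DMSO replicate 1 or without wild-type JQ1 replicate 2, its highest library (adjusted p up to 0.135). In knockout the JQ1 value was 0.17 (SE 0.28, adjusted p 0.683). The knockout was lower in JQ1 (log2 fold change -1.34, SE 0.25, adjusted p 0.00329), and in DMSO the value was -0.75 (SE 0.26, adjusted p 0.106), which passed with no low-count filter (adjusted p 0.0404). STC2, a secreted glycoprotein of the stress response, was at 6.35, 6.62 and 7.04 CPM in wild type with DMSO and 3.96, 3.97 and 3.61 with JQ1, and at 2.76, 2.4 and 2.6 in the knockout with DMSO and 1.45, 1.54 and 1.8 with JQ1. The 4 groups did not overlap at all. STC2 fell with JQ1, with log2 fold changes of -0.80 (SE 0.12, adjusted p 1.22e-04) in wild type and -0.69 (SE 0.14, adjusted p 0.00148) in knockout. It was lower in the knockout, at -1.36 (SE 0.12, adjusted p 5.15e-06) in DMSO and -1.26 (SE 0.14, adjusted p 2.95e-05) in JQ1. It thus had the lowest knockout value of the 37 genes in DMSO, and the lowest after CHAC1 in JQ1.

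VLDLR, a lipoprotein receptor that ATF4 induces, was at 9.69, 9.98 and 11.2 CPM in wild type with DMSO and 16.6, 16.3 and 16.1 with JQ1, and at 6.48, 6.8 and 6.57 in the knockout with DMSO and 15.9, 16.3 and 15.8 with JQ1. The 2 JQ1 groups overlapped, while the knockout DMSO libraries lay below the wild-type DMSO libraries. VLDLR rose with JQ1 1.59-fold in wild type (log2 fold change 0.67, SE 0.08, adjusted p 1.77e-05) and 2.42-fold in knockout (log2 fold change 1.28, SE 0.08, adjusted p 3.75e-08). The knockout value was -0.64 (SE 0.09, adjusted p 2.21e-04) in DMSO and -0.03 (SE 0.08, adjusted p 0.884) in JQ1; the DMSO libraries enter both the knockout and the drug comparison. EIF4EBP1 encodes 4E-BP1, a repressor of cap-dependent translation. It was at 73.1, 74.5 and 74.7 CPM in wild type with DMSO and 123, 112 and 113 with JQ1, and at 95, 99.5 and 97.6 in the knockout with DMSO and 107, 99.8 and 134 with JQ1. In wild type JQ1 lay above DMSO, with log2 fold change 0.64, SE 0.09, adjusted p 4.73e-05. The knockout was already higher in DMSO (log2 fold change 0.39, SE 0.09, adjusted p 0.0102), and JQ1 in knockout gave 0.23 (SE 0.09, adjusted p 0.0563), which passed with 5 of 20 alternatives. PPP1R15A encodes GADD34, the stress-induced subunit that directs eIF2 dephosphorylation. It did not pass in any of the 4 comparisons of the main analysis. Its JQ1 values were -0.25 in wild type and -0.14 in knockout, and its knockout values -0.28 in DMSO and -0.17 in JQ1. With JQ1 in wild type it was called lower with library totals only and with only the groups compared. The latter setting also called it lower for the knockout in DMSO. Without knockout JQ1 replicate 3, PPP1R15A was called lower in all 4, at -0.25 and -0.37 with JQ1 in wild type and knockout (adjusted p 0.00838 and 0.0019 by edgeR) and at -0.27 and -0.40 for the knockout in DMSO and JQ1 (adjusted p 0.00438 in JQ1).

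Of the 6 serine synthesis and one-carbon genes, the 3 enzymes that make serine from a glycolytic intermediate passed in no comparison of the main edgeR analysis. PHGDH, the first enzyme of that route, was at 159.6, 140.1 and 152 CPM in wild type with DMSO and 175, 167 and 161 with JQ1, and at 150.5, 141 and 155 in the knockout with DMSO and 149.8, 159.5 and 161 with JQ1. PSAT1, the second enzyme, was at 82.9, 87.6 and 86.9 CPM in wild type with DMSO and 82.9, 80.2 and 82.5 with JQ1, and at 85.8, 74.7 and 83.5 in the knockout with DMSO and 88.4, 82 and 78 with JQ1. The DMSO and JQ1 groups touched without overlapping in wild type for both genes and overlapped in knockout. JQ1 gave 0.16 (SE 0.06, adjusted p 0.0643) for PHGDH in wild type, which passed in 4 of 20 alternatives, DESeq2 among them, and -0.07 (SE 0.06, adjusted p 0.468) for PSAT1, which passed as lower with library totals only (adjusted p 0.0346). In knockout the JQ1 values were 0.07 for PHGDH and 0.03 for PSAT1, with 95% intervals of -0.06 to 0.21 and -0.11 to 0.16. PSPH, the last enzyme, gave 0.10 in wild type and -0.06 in knockout. PSAT1 and PSPH have 4 and 1 pseudogenes named after them, so reads could be split.

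The mitochondrial one-carbon enzymes did not move together. ALDH1L2, mitochondrial 10-formyltetrahydrofolate dehydrogenase, was at 25.4, 28.4 and 28.9 CPM in wild type with DMSO and 11.9, 14.2 and 14.3 with JQ1, and at 17.2, 19.2 and 22.1 in the knockout with DMSO and 9.18, 9.21 and 8.83 with JQ1. The 4 groups did not overlap, and knockout JQ1 was the lowest. With JQ1 it fell, with log2 fold changes of -1.03 (SE 0.10, adjusted p 2.26e-06) in wild type and -1.10 (SE 0.11, adjusted p 1.63e-06) in knockout, which were the largest falls of the list in both genotypes. It was also lower in the knockout, at -0.50 (SE 0.10, adjusted p 0.00471) in DMSO and -0.57 (SE 0.11, adjusted p 0.00324) in JQ1. MTHFD2, the mitochondrial methylenetetrahydrofolate dehydrogenase, rose by 0.28 (SE 0.06, adjusted p 0.00192) in wild type and 0.30 (SE 0.06, adjusted p 0.00112) in knockout; the wild-type call was lost with library totals only (adjusted p 0.0587). SHMT2, mitochondrial serine hydroxymethyltransferase, gave 0.26 (SE 0.08, adjusted p 0.0259) in wild type and 0.15 (SE 0.08, adjusted p 0.19) in knockout, and the wild-type call was lost in 5 of 20 alternatives, including without wild-type DMSO replicate 1 or 3 and without wild-type JQ1 replicate 1 or 3. Neither MTHFD2 nor SHMT2 passed between genotypes.

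ASNS, asparagine synthetase, was among the clearest rises with JQ1. It was at 56.8, 58.4 and 59 CPM in wild type with DMSO and 85.1, 89.7 and 89.5 with JQ1, and at 55, 54 and 53.5 in the knockout with DMSO and 94.6, 96.5 and 82.1 with JQ1. Every JQ1 library lay above every DMSO library in both genotypes. ASNS rose 1.52-fold in wild type (log2 fold change 0.60, SE 0.06, adjusted p 4.96e-06) and 1.68-fold in knockout (log2 fold change 0.75, SE 0.06, adjusted p 5.19e-07). ASNS has 4 pseudogenes named after it, and AC079781.5 overlaps it on the same strand by 20425 bases of gene span, introns included. Between genotypes it did not pass, with -0.10 in DMSO (95% interval -0.24 to 0.04) and 0.05 in JQ1 (-0.09 to 0.18).

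In proline synthesis, ALDH18A1, the enzyme of the first steps from glutamate, was at 181, 169 and 176 CPM in wild type with DMSO and 218, 219 and 213 with JQ1, and at 202, 188 and 212 in the knockout with DMSO and 245, 230.5 and 248 with JQ1. Its JQ1 and DMSO groups did not overlap, and it rose by 0.30 (SE 0.06, adjusted p 6.27e-04) in wild type and 0.26 (SE 0.06, adjusted p 0.00175) in knockout. The knockout was higher in DMSO (log2 fold change 0.20, SE 0.06, adjusted p 0.0402), a call lost in 10 of 20 alternatives, among them leaving out any wild-type library or knockout DMSO replicate 1 or 3 (adjusted p up to 0.173). PYCR1, the mitochondrial reductase of the last step, gave -0.02 (SE 0.08, adjusted p 0.854) in wild type and -0.23 (SE 0.08, adjusted p 0.0315) in knockout. The knockout call was lost without knockout DMSO replicate 1 or 3 or knockout JQ1 replicate 1 or 2 (adjusted p up to 0.0944).

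The 7 amino acid transporters were mostly higher with JQ1. With JQ1, 5 were higher and 1 lower in each genotype, and the other, SLC7A1, did not pass in either. That is 85.7% called in each genotype, against 33.1% of all tested genes in wild type and 34.4% in knockout. For the 113 genes of the other lists it was 49.6% in each genotype. Scaled by library totals alone, 4 rose and 2 fell in each genotype, since SLC38A2 no longer passed and SLC7A1 passed as lower. In the knockout all 7 had negative log2 fold changes at both treatments, 4 of them passing in DMSO and 2 in JQ1. That is 57.1% and 28.6% called, against 7.92% and 8.57% of all tested genes, and 18.6% and 16.8% of those 113 genes. SLC1A4 encodes ASCT1, a carrier of alanine, serine, cysteine and threonine. It was at 94.5, 97.3 and 99 CPM in wild type with DMSO and 191, 203 and 183 with JQ1, and at 76.2, 72.9 and 79.3 in the knockout with DMSO and 164, 162 and 182 with JQ1. The 4 groups did not overlap, and both JQ1 groups lay above both DMSO groups. SLC1A4 rose 1.98-fold with JQ1 in wild type (log2 fold change 0.99, SE 0.06, adjusted p 3.04e-08) and 2.23-fold in knockout (log2 fold change 1.16, SE 0.06, adjusted p 5.13e-09). It was lower in the knockout in DMSO (log2 fold change -0.35, SE 0.06, adjusted p 0.00227), a call lost with the authors' normalization factors (adjusted p 0.114) and with limma on the deposited normalized signal (adjusted p 0.112), and in JQ1 the value was -0.18 (SE 0.06, adjusted p 0.0891).

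SLC7A5 encodes LAT1, the light chain of the main importer of large neutral amino acids, and SLC3A2 encodes its heavy chain, 4F2hc. SLC7A5 was at 217, 234 and 226 CPM in wild type with DMSO and 357, 353 and 307 with JQ1, and at 135, 161 and 158 in the knockout with DMSO and 232, 248 and 303 with JQ1. Knockout DMSO was the lowest group and wild-type JQ1 the highest, with no overlap between any groups except that knockout JQ1 replicate 1 lay within wild-type DMSO. SLC7A5 rose with JQ1 by 0.59 (SE 0.09, adjusted p 2.36e-04) in wild type and 0.79 (SE 0.10, adjusted p 1.54e-05) in knockout, and it was lower in the knockout, at -0.58 (SE 0.10, adjusted p 0.00126) in DMSO and -0.38 (SE 0.09, adjusted p 0.0216) in JQ1. The last call was lost without wild-type JQ1 replicate 1 or 2, without knockout JQ1 replicate 1 or 2, and with only the groups compared (adjusted p up to 0.0928). SLC3A2 was at 96.1 ± 3.6 CPM in wild type with DMSO and 123 ± 5.65 with JQ1, and at 82.1 ± 1.8 in the knockout with DMSO and 107 ± 8.5 with JQ1 (SD, n = 3 each). It rose with JQ1 by 0.35 (SE 0.06, adjusted p 5.88e-04) in wild type and 0.39 (SE 0.06, adjusted p 2.52e-04) in knockout, and its lower level in the knockout in DMSO (log2 fold change -0.23, SE 0.06, adjusted p 0.0414) was lost in 13 of 20 alternatives, among them leaving out any DMSO library or wild-type JQ1 replicate 1 or 2. SLC7A5 has 2 pseudogenes named after it.

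**Figure D4:**
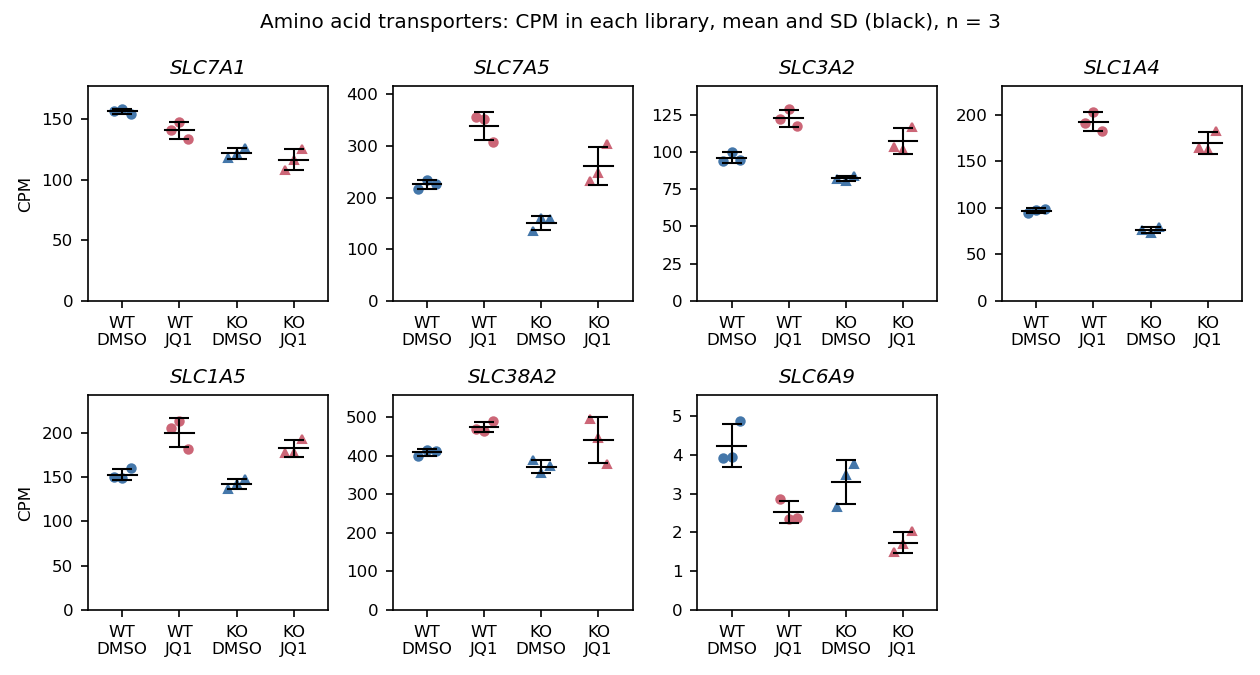
CPM of the 7 amino acid transporters in each library (points) with the mean and SD of 3 replicates (black), for wild-type (circles) and knockout cells (triangles) in DMSO (blue) and JQ1 (red). SLC7A5, SLC3A2, SLC1A4 and SLC1A5 are higher in JQ1 than in DMSO in both genotypes, SLC6A9 is lower, and SLC7A1 is lower in the knockout.

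SLC1A5 encodes ASCT2, a glutamine carrier. It was at 153 ± 6.02 CPM in wild type with DMSO and 200.1 ± 16.3 with JQ1, and at 142 ± 5.54 in the knockout with DMSO and 182 ± 9.36 with JQ1, and it rose by 0.39 (SE 0.07, adjusted p 3.23e-04) in wild type and 0.36 (SE 0.07, adjusted p 5.96e-04) in knockout. SLC38A2 encodes SNAT2, whose synthesis amino acid shortage induces. It was at 408 ± 9.38 CPM in wild type with DMSO and 474 ± 14.1 with JQ1, and at 372 ± 16.1 in the knockout with DMSO and 440.5 ± 59.2 with JQ1, and its rises of 0.22 (SE 0.08, adjusted p 0.0415) and 0.24 (SE 0.08, adjusted p 0.0223) were lost in 10 and 6 of 20 alternatives; they included leaving out any wild-type library, or, in knockout, DMSO replicate 2 or 3 or JQ1 replicate 1 or 2. SLC7A1 encodes CAT-1, a carrier of arginine and lysine. It was at 156 ± 2.15 CPM in wild type with DMSO and 140.5 ± 7.05 with JQ1, and at 122 ± 4.44 in the knockout with DMSO and 116 ± 8.65 with JQ1, and the knockout was lower, at -0.36 (SE 0.06, adjusted p 0.00158) in DMSO and -0.27 (SE 0.06, adjusted p 0.0121) in JQ1. The call in JQ1 was lost without wild-type JQ1 replicate 2, without knockout JQ1 replicate 1 or with only the groups compared (adjusted p up to 0.0837).

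SLC6A9 encodes GLYT1, a glycine carrier, and was the transporter that fell with JQ1. It was at 3.9, 3.93 and 4.87 CPM in wild type with DMSO and 2.86, 2.34 and 2.37 with JQ1, and at 2.66, 3.47 and 3.76 in the knockout with DMSO and 1.49, 1.7 and 2.03 with JQ1. The JQ1 and DMSO groups did not overlap within a genotype, and knockout JQ1 was the lowest group. SLC6A9 fell, with log2 fold changes of -0.75 (SE 0.17, adjusted p 0.00311) in wild type and -0.91 (SE 0.18, adjusted p 0.00117) in knockout. The knockout values of -0.37 (SE 0.16, adjusted p 0.232) in DMSO and -0.53 (SE 0.18, adjusted p 0.101) in JQ1 did not pass, at 39 to 177 counts a library.

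The 8 cytosolic aminoacyl-tRNA synthetases load amino acids onto their tRNAs. Their JQ1 log2 fold changes ran from -0.22 to 0.37 in wild type and from -0.31 to 0.27 in knockout. With JQ1, 1 was higher and 1 lower in wild type, and 1 was higher and 2 lower in knockout. That is 25% and 37.5% called, near the 33.1% and 34.4% of all tested genes. Between genotypes 0% were called in DMSO and 12.5% in JQ1, against 7.92% and 8.57% of all tested genes. SARS, for serine, was at 102 ± 1.18 CPM in wild type with DMSO and 132 ± 4.42 with JQ1, and at 106 ± 5.24 in the knockout with DMSO and 128 ± 4.67 with JQ1 and rose by 0.37 (SE 0.05, adjusted p 9.61e-05) in wild type and 0.27 (SE 0.05, adjusted p 0.00139) in knockout. IARS, for isoleucine, was at 400.1 ± 4.42 CPM in wild type with DMSO and 344 ± 8.21 with JQ1, and at 394 ± 9.14 in the knockout with DMSO and 317 ± 28.8 with JQ1 and fell, at -0.22 (SE 0.06, adjusted p 0.0104) and -0.31 (SE 0.06, adjusted p 7.77e-04). WARS, for tryptophan, gave -0.06 (SE 0.06, adjusted p 0.45) in wild type and -0.21 (SE 0.06, adjusted p 0.014) in knockout, the latter call lost without knockout DMSO replicate 1 (adjusted p 0.0744) and with only the groups compared (adjusted p 0.0588). AARS, GARS, MARS, NARS and YARS did not pass with JQ1, with log2 fold changes from -0.17 (NARS) to 0.11 (GARS) in wild type and from -0.12 (NARS) to 0.13 (GARS) in knockout. GARS passed as higher in 2 of 20 alternatives in wild type and 3 in knockout, and NARS as lower in 3 in wild type and 1 in knockout; without knockout JQ1 replicate 3, GARS passed in both genotypes (adjusted p 0.0446 and adjusted p 0.0111). YARS passed as lower in knockout with library totals only (adjusted p 0.0369). Between genotypes YARS, for tyrosine, passed in JQ1 (log2 fold change -0.19, SE 0.05, adjusted p 0.0269), a call lost in 11 of 20 alternatives, among them leaving out any wild-type DMSO library or replicate 1 or 2 of either JQ1 group. In DMSO no synthetase passed in the main edgeR analysis or by DESeq2; 3 had an unadjusted p under 0.05 by edgeR. YARS passed there as lower with library totals only, with the authors' factors and with limma (adjusted p 0.0469, adjusted p 0.0423 and adjusted p 0.0428), and AARS with library totals only (adjusted p 0.0323). The values ran from -0.14 (AARS) to 0.08 (WARS).

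The third comparison asked whether the response to JQ1 differed between genotypes. By edgeR's quasi-likelihood test of the interaction, none of the 37 genes passed an adjusted p of 0.05, where 0.134% of all tested genes passed (0.0323% higher and 0.101% lower). At an unadjusted p under 0.05 there were 6, where 8.37% of all genes passed that threshold. The list's median difference was -0.03, against -0.00611 over all genes. VLDLR had the smallest adjusted p: its response was larger in knockout by 0.61 (95% interval 0.36 to 0.86, adjusted p 0.0667). DDIT3 (-0.71, interval -1.07 to -0.34, adjusted p 0.203), TRIB3 (-0.44, interval -0.71 to -0.17, adjusted p 0.273) and EIF4EBP1 (-0.42, interval -0.68 to -0.16, adjusted p 0.307) had lower responses in knockout. DDIT4 (0.20, adjusted p 0.549) and ATF5 (0.37, adjusted p 0.553) had higher ones. DESeq2 called 2 genes, VLDLR (adjusted p 0.00535) and DDIT3 (adjusted p 0.0275), where it called 0.599% of all genes. Without knockout JQ1 replicate 3 edgeR called 2, VLDLR (adjusted p 0.0402) and EIF4EBP1 (adjusted p 0.00418), with 0.395% of all genes. With no low-count filter it called DDIT3 (adjusted p 0.0178) and EIF4EBP1 (adjusted p 0.0279), with 0.557% of all genes. CHAC1 had the widest interval, -1.37 to 0.19.

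**Figure D5:**
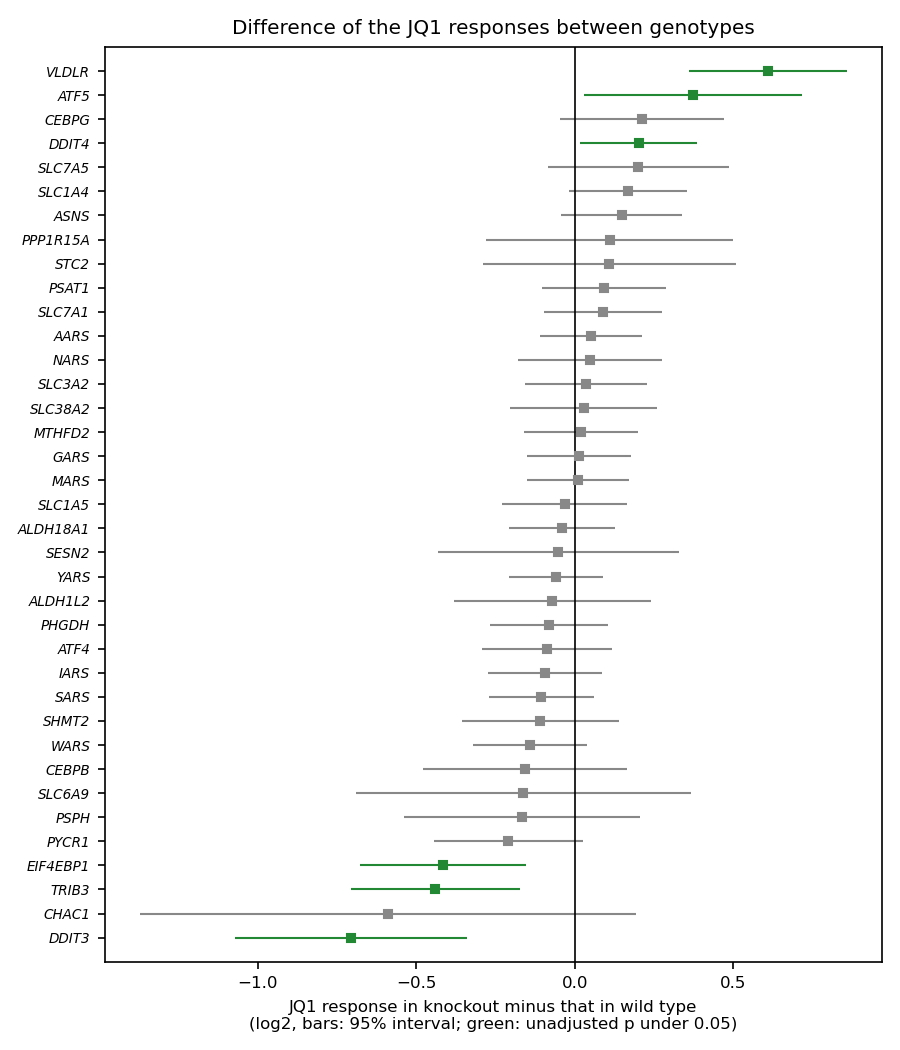
Difference between the JQ1 responses of the 2 genotypes (knockout minus wild type, log2) for each of the 37 genes, ordered by value, with 95% intervals; green marks an unadjusted p under 0.05. Values run from -0.71 for DDIT3 to 0.61 for VLDLR, and none passed an adjusted p of 0.05.

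Other genes of the pathway were counted in lists that hold none of the 37. Of all tested genes, 16.9% were higher and 16.2% lower with JQ1 in wild type, and 16.7% and 17.8% in knockout. In the knockout comparison 3.47% were higher and 4.44% lower in DMSO, and 3.01% and 5.56% in JQ1. Of 16 genes for the eIF2 kinases and the control of eIF2, 3 were higher and 4 lower with JQ1 in wild type and 3 higher and 5 lower in knockout. In the knockout comparison 1 was higher and 1 lower in DMSO, and none passed in JQ1 by edgeR or by DESeq2, where 2 had an unadjusted p under 0.05. EIF2AK2, the eIF2 kinase activated by double-stranded RNA, fell, with log2 fold changes of -0.47 (SE 0.06, adjusted p 3.28e-05) in wild type and -0.32 (SE 0.06, adjusted p 7.69e-04) in knockout. IMPACT, an inhibitor of the amino acid-sensing kinase GCN2, fell likewise, at -0.57 (SE 0.10, adjusted p 3.34e-04) and -0.72 (SE 0.10, adjusted p 4.07e-05). PPP1R15B, the constitutive counterpart of PPP1R15A, rose by 0.27 (SE 0.05, adjusted p 8.62e-04) and 0.34 (SE 0.05, adjusted p 1.24e-04).

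Of 17 other ATF4-linked genes, 5 were higher and 7 lower with JQ1 in wild type, and 5 were higher and 6 lower in knockout. In the knockout comparison 1 was higher and 4 lower in DMSO, and 3 were lower in JQ1. With JQ1 these calls were 70.6% of the list in wild type and 64.7% in knockout, against 33.1% and 34.4% of all tested genes. For the knockout they were 29.4% in DMSO and 17.6% in JQ1, against 7.92% and 8.57%. SLC7A11, the cystine importer xCT, was at 73.6, 75.4 and 68.2 CPM in wild type with DMSO and 22.7, 23.8 and 24.2 with JQ1, and at 73.6, 70.8 and 70.3 in the knockout with DMSO and 12.5, 14.7 and 9.62 with JQ1. JQ1 groups lay far below DMSO groups, and the log2 fold change was -1.62 (SE 0.10, adjusted p 3.39e-08) in wild type and -2.55 (SE 0.11, adjusted p 6.4e-10) in knockout. CBS, of the transsulfuration pathway, fell, at -1.19 (SE 0.12, adjusted p 4.31e-06) and -1.23 (SE 0.13, adjusted p 4.11e-06). SESN3, a Sestrin, rose by 1.05 (SE 0.10, adjusted p 1.62e-06) and 0.81 (SE 0.10, adjusted p 1.44e-05), and it was higher in the knockout in DMSO (log2 fold change 0.57, SE 0.10, adjusted p 0.00194).

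Of 17 other amino acid transporters, 1 was higher and 4 lower with JQ1 in wild type, and 2 were higher and 5 lower in knockout. Between genotypes 1 passed in DMSO and 2 in JQ1. These shares were near those of all tested genes: 29.4% and 41.2% with JQ1, against 33.1% and 34.4%. Between genotypes they were 5.88% and 11.8%, against 7.92% and 8.57%. SLC6A15, a neutral amino acid carrier, fell, at -0.49 (SE 0.08, adjusted p 2.48e-04) and -0.62 (SE 0.08, adjusted p 3.11e-05). Of the 12 other cytosolic synthetases, 2 were higher and 4 lower with JQ1 in wild type and 1 higher and 4 lower in knockout. That is 50% and 41.7% of the list, against the same 33.1% and 34.4% of all tested genes. LARS, for leucine, fell, at -0.73 (SE 0.07, adjusted p 1.61e-06) and -0.81 (SE 0.07, adjusted p 4.83e-07). EPRS, for glutamate and proline, was the only one lower in the knockout, at -0.41 (SE 0.07, adjusted p 0.00248) in DMSO and -0.45 (SE 0.07, adjusted p 0.0012) in JQ1. EPRS lies distal to MAPKAPK2 on the long arm of chromosome 1, where none of the 37 genes lies, and the part of its position in the result was not tested.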

How the data were processed

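RNA was sequenced in 12 samples of A375, and per the labels' protocols ribosomal RNA was removed and the libraries were strand-specific. Both tables were deposited by the authors: estimated counts per gene symbol, and a normalized signal in which each count is divided by a factor for its gene and library. The submitters' processing notes name Trim Galore, cutadapt, FastQC, MultiQC, kallisto, DESeq2 and the build GRCh38.p10; their settings, and whether counting used the strand, are not given in the sources used here. Of the 37 genes, 21 overlap another gene in GENCODE 29, 19 of them a gene of the opposite strand. These overlaps are of whole gene spans, introns included, and shared exons were not measured. Overlaps on the same strand include those of DDIT3, ASNS and PYCR1. A pseudogene of their name exists for 11 genes, so reads may be split.

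Columns were assigned by their names, and groups came from the genotype and treatment fields. Estimated counts were rounded (tests had been planned for counts), filtered with filterByExpr over the 4 groups and scaled with trimmed means of M values. edgeR 4.0.16 (R 4.3.3) was fitted with 1 coefficient per group over all 12 libraries, with quasi-likelihood tests and Benjamini-Hochberg adjustment over all 21698 genes; "called" means an adjusted p under 0.05, and intervals are 95%. The procedure was run on simulated data. Few genes were changed there and no library was made to stand apart, so the simulation does not cover these features of the data. Depth was 25316899 to 34594295 counts, which limits CHAC1, STC2 and SLC6A9 most.

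Genes given by library were 9 fixed names and, per comparison, the 3 called genes with the largest rise and fall; other lists name at most 3 called genes with the smallest adjusted p per comparison. Alternatives were other scalings (relative log expression, library totals, the authors' factors), no filter, DESeq2 1.42.0, limma 3.58.1 on the log2 of the deposited signal, only the groups compared, a replicate block and leaving out each library. The genes and lists were chosen with earlier results of these data known. GCN1L1 and PYCRL of the lists matched no symbol of the table. Promoter windows came from RefSeq, and 6 of the 37 genes had no window (EIF4EBP1, PSPH, SHMT2, ALDH1L2, PYCR1 and YARS). No genes were compared by level, because CPM is not per length.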

Additional observations from a re-analysis of the deposited data

Results flagged for a closer look

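SLC7A11, the cystine importer xCT and one of the other ATF4-linked genes, responded to JQ1 differently in the 2 genotypes by the test of the difference itself. Its JQ1 response was -1.62 in wild type and -2.55 in knockout, a difference of -0.93 on the log2 scale (95% interval -1.25 to -0.62, adjusted p 0.0208 by edgeR's quasi-likelihood test). The gene was at 72.4 ± 3.74 CPM in wild type with DMSO and 23.6 ± 0.761 with JQ1, and at 71.6 ± 1.77 in the knockout with DMSO and 12.3 ± 2.56 with JQ1 (mean ± SD, n = 3 each), and the 3 knockout JQ1 libraries were the lowest of all 12. The call was lost when any 1 of the wild-type libraries or knockout DMSO libraries was left out (9 of 19 alternatives, adjusted p up to 0.103), while the difference stayed between -1.08 and -0.78.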

How the results depend on the processing

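No called gene of the 37 reversed its direction under any alternative; values that passed neither in the main analysis nor in the alternative did change sign in places. The count of called genes was 20 with JQ1 in wild type (18 to 25 when 1 library was left out), 20 in knockout (18 to 23), 11 for the knockout in DMSO (8 to 12), 9 in JQ1 (5 to 13) and 0 for the difference of responses (0 to 2). The count of 9 became 5 with only the groups compared, where fewer genes were tested and the spread came from 6 libraries. The count of 0 became 2 with no low-count filter, 2 with DESeq2 and 2 without knockout JQ1 replicate 3; the cause was not tested. Median log2 fold changes of the list, when 1 library was left out, ran from 0.07 to 0.16 with JQ1 in wild type, 0.08 to 0.14 in knockout, -0.12 to -0.08 for the knockout in DMSO, -0.15 to -0.10 in JQ1 and -0.05 to 0.02 for the difference. With library totals only, the JQ1 medians were -0.02 in wild type and -0.01 in knockout. With the replicate number as a block the counts were 19, 20, 10, 9 and 0, so the block moved no count by over 1.5 times. The numbers were not taken to pair samples: 2 of 18 correlations between same-numbered libraries were over 0.1 (range -0.309 to 0.27), and in 9 of 36 checks a library correlated best with its own number. CHAC1, at 32 to 132 counts, had SEs of 0.24 with JQ1 in wild type and 0.28 in knockout. STC2, at 38 to 256 counts, had SEs of 0.12 and 0.14 there. The part of depth in these SEs was not tested.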

Other observations

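The other branches of the ER stress response run through ATF6 and through ERN1 (IRE1) and XBP1, and their targets are largely genes of protein folding. Of 16 genes of these branches, ATF6, ERN1 and XBP1 among them, 10 were higher and 0 lower with JQ1 in wild type, and 11 were higher and 0 lower in knockout, by the edgeR test adjusted over all genes; in the same comparisons 16.9% and 16.7% of all tested genes were higher. In the knockout against wild type, 3 were higher in DMSO and 6 in JQ1, where 3.47% and 3.01% of all tested genes were higher. HSPA5, the ER chaperone BiP, was at 594, 579.5 and 598 CPM in wild type with DMSO and 809, 824 and 802 with JQ1, and at 717, 691 and 724 in the knockout with DMSO and 946, 928 and 926 with JQ1, so the 4 groups did not overlap. Its log2 fold changes were 0.46 (SE 0.04, adjusted p 1.17e-06) with JQ1 in wild type, 0.39 (SE 0.04, adjusted p 4.18e-06) in knockout, 0.27 (SE 0.04, adjusted p 8.09e-04) for the knockout in DMSO and 0.20 (SE 0.04, adjusted p 0.00636) in JQ1. HYOU1, another ER chaperone, rose with JQ1 by 0.73 (SE 0.07, adjusted p 1.17e-06) and 0.76 (SE 0.07, adjusted p 6.47e-07). The median log2 fold changes with JQ1 were 0.39 and 0.40. ATF6, at 0.04 and 0.00 (SE 0.07, adjusted p 0.977), did not pass in either genotype, and its sign turned under other settings, down to -0.09 and -0.11. XBP1 passed in knockout (log2 fold change 0.19, SE 0.07, adjusted p 0.0417), a call lost in 11 of 20 alternatives, among them leaving out any knockout DMSO library or replicate 1 or 2 of knockout JQ1, and also replicate 2 of wild-type DMSO and replicate 1 of wild-type JQ1. ERN1 passed in wild type (log2 fold change 0.36, SE 0.12, adjusted p 0.0297), a call lost in 6 of 20, which include leaving out any wild-type DMSO library or wild-type JQ1 replicate 2 or 3. ATF6, XBP1 and ERN1 were named after their values were seen.

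Among 17 mitochondrial synthetases, 5 were higher and 3 lower with JQ1 in wild type, and 1 was higher and 5 lower in knockout. In the knockout comparison 3 were higher and 1 lower in DMSO, and 2 were lower in JQ1. With JQ1 these calls were 47.1% of the list in wild type and 35.3% in knockout, against 33.1% and 34.4% of all tested genes. For the knockout they were 23.5% in DMSO and 11.8% in JQ1, against 7.92% and 8.57%. Of 18 other genes of one-carbon metabolism and amino acid synthesis, 5 were higher and 3 lower with JQ1 in each genotype. In the knockout 3 were higher and 2 lower at each treatment. That is 44.4% called with JQ1, against 33.1% and 34.4% of all tested genes. For the knockout it is 27.8%, against 7.92% and 8.57%. GLUL, glutamine synthetase, was at 16, 14.5 and 16.7 CPM in wild type with DMSO and 7.82, 7.64 and 6.83 with JQ1, and at 9.04, 7.35 and 9.55 in the knockout with DMSO and 3.92, 3.12 and 3.36 with JQ1. The log2 fold changes of GLUL were -1.09 (SE 0.12, adjusted p 5.79e-06) and -1.32 (SE 0.13, adjusted p 2.1e-06) with JQ1, and -0.87 (SE 0.12, adjusted p 2.21e-04) in DMSO and -1.10 (SE 0.13, adjusted p 6.95e-05) in JQ1 for the knockout.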
